A study of Mus musculus with 8 samples.

Results

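The microRNAs described here are 194 mouse 5p arms, miR-6896-5p to miR-7093-5p, out of 1881 microRNAs (miRNAs) on an Agilent mouse miRNA array. They were taken by name: every non-control entry called miR-N-5p whose whole number N lies in the range that runs from miR-6896-5p up to and including miR-7093-5p, leaving out 2 entries, miR-6931-5p and miR-7040-5p. The rule names no measured value, but it was set with earlier results of these data known. Both entries left out were higher after LPS. The array held 398 probes for them, 2 probes for each of 184 arms and 3 for each of the other 10.

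Kidneys were compared between mice with septic acute kidney injury, induced by 10 µg of lipopolysaccharide (LPS, from the bacterial outer membrane) per g of body weight injected into the peritoneal cavity, and sham mice injected with saline. Both were sampled at 24 h, and 4 arrays were run per group, each with Cy3-labelled RNA (100 ng) from 30 mg of kidney. The sources used here give no strain, age or genotype. The samples are numbered in the labels (sham 5, 6, 7 and 8, LPS 6, 10, 11 and 12) but not said to be separate animals. What the p-values measure is thus the spread among these 8 samples, which may in part be technical.

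A miRNA hairpin is usually cut from a longer transcript by the nuclease Drosha, then by Dicer into 2 short strands, the 5p arm and the 3p arm, either of which can be loaded into an Argonaute protein and guide it to messenger RNAs through the seed, bases 2 to 8. A mirtron is a short intron that folds into such a hairpin after splicing and debranching and so bypasses Drosha. Where both ends of the intron are ends of the hairpin, the hairpin starts with GU and ends with AG, the first and last bases of most introns. In a tailed mirtron only 1 end of the hairpin is an end of the intron.

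The name mirtron-like was checked against RefSeq sequences and gene positions of the build GRCm38.p6, which held 171 of the 194 arms. The hairpins of the set ended with AG in 162 of 173 cases (93.6%), against 76 of 832 other hairpins (9.14%). Over the whole number range, the 3p arm ran to the last base of the hairpin in 123 of 164. Only 25 of the 173 hairpins (14.5%) started with GU, against 6.25% of the others, and the 5p arm began a median of 5 bases inside the hairpin. All 171 matched arms lay within the span of a protein-coding gene, 150 of them on that gene's strand. For the other 21 the strand of the surrounding gene was not in the tables, and the tables do not separate exons from introns. The 3' ends therefore had the letters of an intron end, while most 5' ends did not. The hairpins of 2 arms are shown because their 5p arms recur in the results, with the 5p arm in capitals and the closing ag at the right end. They lie at chr17:35244075-35244135 (plus strand, in Ddx39b, an RNA helicase gene) and chr8:123130106-123130172 (plus strand, in Cpne7).
Mir6975: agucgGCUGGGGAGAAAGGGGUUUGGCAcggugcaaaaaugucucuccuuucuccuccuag
Mir7080: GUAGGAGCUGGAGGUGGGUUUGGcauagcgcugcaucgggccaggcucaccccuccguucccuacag

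The 5p arms were rich in G. Of their bases 43.9% were G and 14.5% C, against 29.4% and 20.8% in the other 5p arms on the array with a RefSeq sequence, and 74.9% held GGG against 29.1%. The 3p arms in the same number range were 40.0% C. The mature 5p sequences of the arms that changed between the groups or gave the highest signals are shown with the seed in capitals, together with miR-7005-5p, which has the seed of miR-6975-5p. RefSeq held 31 of the 34 arms tested between the groups, without miR-6971-5p, miR-6980-5p and miR-7042-5p.
miR-7047-5p: uGAGGGAGgagggcugggucuga
miR-6937-5p: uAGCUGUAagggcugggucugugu
miR-6975-5p: gCUGGGGAgaaagggguuuggca
miR-7080-5p: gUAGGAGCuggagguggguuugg
miR-6987-5p: uGGGACAGggugacagggugag
miR-6918-5p: uGCUGAGGacgggauuagguucu
miR-6904-5p: uCCUGGGGuuagaguugagugg
miR-7028-5p: uGGGCUGAggcuugggucaggag
miR-7015-5p: uCUGUGCAguaggcuguggguuc
miR-7020-5p: uGGGAUGGuggagagggugaccag
miR-7033-5p: uCUCCAGGagucugaggggcagg
miR-7082-5p: uACGGGCAggaggaggggagg
miR-6965-5p: aGAGGGAGgcuauugggcaggaga
miR-6995-5p: cUGGGAGUagaagggggaaacca
miR-7045-5p: aGCGGGUGggggagggggacu
miR-7005-5p: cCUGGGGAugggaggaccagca

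These 31 sequences had 29 distinct seeds, so the tested arms were not a seed family. Among all matched arms there were 150 distinct seeds, and 39 arms shared theirs with another arm of the set. The shared seeds among tested arms were CUGGGGA, in miR-6975-5p and miR-7005-5p, and GAGGGAG, in miR-7047-5p and miR-6965-5p.

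Well above background were 15.8% to 17.5% of the non-control spots of an array, and 336 to 375 miRNAs were detected in sham and 342 to 359 in LPS kidneys. All 8 arrays lay on 1 slide, sham arrays in one row and LPS arrays in the other, so that group and row cannot be told apart, while every one of the 4 columns paired a sham with an LPS array. Kidney tubule markers (among them miR-192-5p and miR-204-5p) were detected on all 8 arrays in 6 of 6 cases, and leukocyte markers in 3 of 3. The liver marker miR-122-5p, the muscle markers miR-208a-3p and miR-206-3p and the brain marker miR-124-3p were detected on none, but miR-9-5p, also listed for brain, was detected on all. Markers also differed between the groups. Of the tubule markers miR-192-5p (-0.28), miR-194-5p (-0.33) and miR-204-5p (-0.19) fell and the other 3 did not pass the test. The linear levels of all 6 were summed, and the log2 of that sum ranged from 6.09 to 6.20 in sham and 5.95 to 6.15 in LPS kidneys. Sums of the other lists are given in the same way. Of the leukocyte markers miR-223-3p rose (0.86) and the other 2 did not pass, with sums of 0.62 to 1.17 in sham and 1.13 to 1.31 in LPS kidneys. Both red cell markers, miR-451a (2.43) and miR-144-3p (2.46, detected on 2 sham and 4 LPS arrays), rose, with sums of -0.97 to 1.64 in sham and 1.01 to 3.78 in LPS kidneys. The ranges of the groups overlapped for all 3 lists. The part of cell makeup in the differences of the 5p arms was not tested. In whole kidney, fewer cells of a type and less RNA per cell cannot be told apart.

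Most of the 194 arms were not seen in kidney. Detection required that over 50% of the spots of at least 1 probe were well above background, and by this rule 153 arms were detected on no array, 33 on all 8 and the other 8 on some. Per array, 35, 38, 37 and 39 arms were detected in sham replicates 5, 6, 7 and 8, and 36, 35, 36 and 35 in LPS replicates 6, 10, 11 and 12. The arms at the ends of the number range, miR-6896-5p and miR-7093-5p, were detected on 0 arrays. The same held for miR-6715-5p and miR-7115-5p, the nearest 5p entries outside it without a letter after the number. With a letter, miR-6769b-5p lies nearer below the range, and it was detected on 4 sham and 4 LPS arrays. Of the 3p arms with the same numbers, 194 on the array, 5 were detected at all.

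Only arms detected throughout a group, sham or LPS, were tested, which left 34 of 194 (17.5%), close to the 338 of all 1881 miRNAs (18.0%). The untested arms have no comparison here. Of the 34, 33 were detected on all 8 arrays, and miR-7002-5p was detected on 4 sham and 3 LPS arrays. Another 7 arms were detected on some arrays without reaching the test. They were miR-6905-5p (3 sham, 3 LPS), miR-6981-5p (2 sham, 2 LPS), miR-7055-5p and miR-7086-5p (each 3 sham, 0 LPS), miR-6978-5p (0 sham, 2 LPS), and miR-6939-5p and miR-6990-5p (each 1 sham, 0 LPS). No arm was detected on all arrays of one group and none of the other.

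The tested arms were dim. Levels are given on a log2 scale on which 0 is the array's 75th-percentile probe signal, and the median of the 34 mean levels was -2.71, against -2.00 over all 338 tested miRNAs. The brightest probe of a tested arm had a median signal between 24.1 and 465 scanner units, after subtraction of a background whose median per array was 41.3 to 45.7. Signal also depends on the probe, so these levels order brightness and not the amount of each arm.

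The 4 brightest arms were miR-7047-5p (mean level 0.36 over 8 arrays), miR-7042-5p (-0.51), miR-6937-5p (-1.08) and miR-7082-5p (-1.51). Levels of miR-7047-5p were 1.19, 0.39, 0.36 and 0.29 in sham replicates 5 to 8 and 0.47, -0.22, 0.11 and 0.28 in LPS replicates 6, 10, 11 and 12. Sham 5 was far above the other arrays, LPS 10 was the lowest, and the groups overlapped. The LPS minus sham difference was -0.40 ± 0.22 (SE, limma adjusted p = 0.187), or -0.19 without sham 5 and with array weights. For miR-6937-5p the levels were -0.21, -1.05, -1.11 and -1.13 in sham and -1.0, -1.64, -1.33 and -1.15 in LPS kidneys in the same order, again with sham 5 on top and LPS 10 at the bottom, and the difference was -0.40 ± 0.23 (SE, adjusted p = 0.187), or -0.18 without sham 5. The probes of miR-7047-5p and miR-6937-5p share a run of 12 bases, shown with the probe sequences further on. The deviations of miR-7002-5p, whose probe lacks that run, followed both at 0.99, and the part of shared letters in these values was not tested. MiR-7042-5p measured -0.32, -0.39, -0.37 and -0.42 in sham and -0.48, -1.21, -0.55 and -0.37 in LPS arrays, where LPS 10 stood alone below a narrow range. Its difference of -0.28 ± 0.17 (SE, adjusted p = 0.215) became -0.09 without LPS 10.

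**Figure D1:**
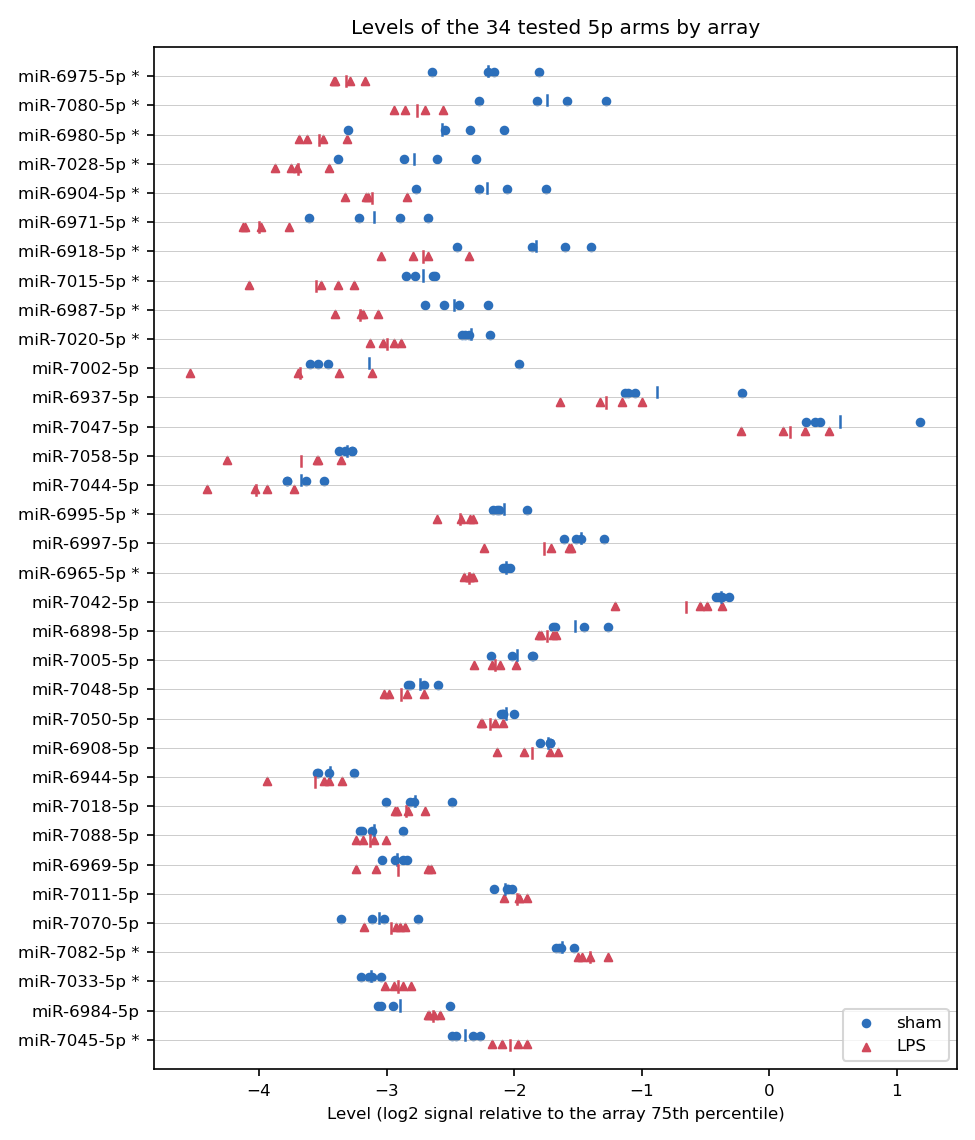
Level of each of the 34 tested 5p arms on each array (x axis, log2 signal relative to the array's 75th percentile), with 4 sham arrays as blue circles and 4 LPS arrays as red triangles, group means as short vertical lines, and arms in order of the LPS minus sham difference. Asterisks mark the 15 arms with an adjusted p under 0.05: 12 with the LPS mean to the left of the sham mean and 3, near the bottom, with the LPS mean to the right. Among these 15, arrays of the groups overlap only in miR-6918-5p, and most levels lie between -4 and -1.

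After LPS, 12 of the 34 tested arms fell, 3 rose and 19 did not pass the test (limma, Benjamini-Hochberg over 338 miRNAs, threshold 0.05). Over all 338 tested miRNAs 40.2% passed, 25.4% lower and 14.8% higher. The arms called lower were thus 35.3% of those tested and the arms called higher 8.82%, beside 24.3% and 15.5% of the other 304 tested miRNAs. These 304 include the 2 rising entries that the rule left out. With both added to the arms, 13.9% of the tested arms were called higher. The median difference of the 34 arms was -0.29 on the log2 scale, with a range of -1.12 to 0.35 and 27 of 34 below 0, beside -0.08 over all tested miRNAs. In 14 of the 15 called arms the arrays of the groups did not overlap, 11 lower and 3 higher, where 24.9% and 12.1% of all tested miRNAs were so placed.

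The counts were recomputed under other scalings. With scaling to labelling spike-ins, 18 arms were lower and 0 higher, and the median of all miRNAs moved from -0.08 to -0.23, with both spike-ins brighter on the LPS arrays (log2 signal 11.59 to 11.90 for dmr_285 and 9.96 to 10.07 for dmr_31a) than on the sham arrays (11.42 to 11.51 and 9.86 to 9.92). The other scalings tried gave 12 lower and 3 or 4 higher arms while the calls over all miRNAs shifted, for example to 53 lower and 55 higher with the percentile taken over all probes, in place of 86 and 50. With slide column as a block, 8 arms were lower and 2 higher. Within columns 1 to 4 the median of the 34 arms was -0.17, -0.54, -0.25 and -0.07. Rises numbered 1 without any one of sham replicates 6, 7 and 8 or LPS replicates 6 and 12.

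**Figure D2:**
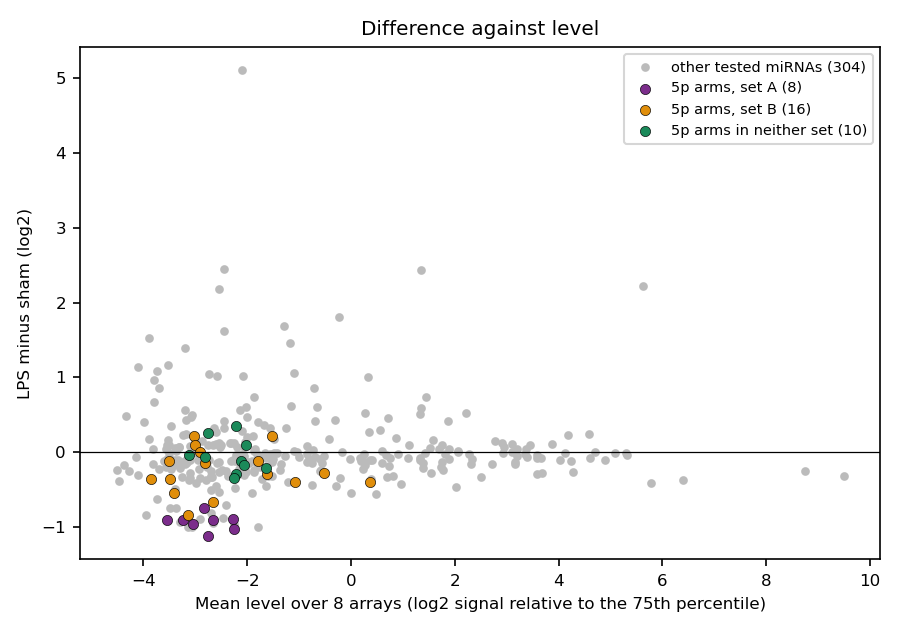
LPS minus sham difference (y axis, log2) against mean level over 8 arrays (x axis, log2 signal relative to the 75th percentile) for the 338 tested miRNAs, with the 34 5p arms coloured by the groups of covariation described in the text and the other 304 in grey. The 8 arms of set A lie between -0.74 and -1.12 at levels between -3.55 and -2.25, and no arm of the other colours exceeds 0.35.

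The tested arms did not vary as one between arrays. Each arm's deviations from its group means over the 8 arrays were correlated with those of every other arm, as a description, since all arms share the same arrays and RNA. The median correlation over 561 pairs was 0.22, beside 0.13 among the other tested miRNAs, with a range from -0.87 to 0.998. It was 0.0768 without LPS 6, 0.0787 with quantile scaling, 0.37 with normexp and 0.38 with spike-in scaling. Average-linkage clustering cut at a correlation of 0.6 gave 2 larger groups, called sets A and B, of 8 and 16 arms, and 10 arms stood in neither. Because these sets were built from the values, their differences are given without a test of the set. The median correlation was 0.96 within set A, 0.76 within set B and -0.17 between the sets. The sets were cut from these same correlations, so higher values within than between them follow from the cut.

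Set A consisted of miR-6904-5p, miR-6918-5p, miR-6971-5p, miR-6975-5p, miR-6980-5p, miR-6987-5p, miR-7028-5p and miR-7080-5p, and all 8 fell after LPS, with a median difference of -0.91. Of the genes around them, Ddx39b (miR-6975-5p) encodes an RNA helicase of splicing and export, Parp1 (miR-6904-5p) an enzyme of DNA repair, Tchp (miR-7028-5p) a keratin-binding protein. Nipsnap1 holds miR-6918-5p and Pcnx3 holds miR-6987-5p. Messenger RNA of the hosts was not measured. No arm pair within set A with a RefSeq sequence shared a seed.

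Levels of miR-6975-5p, at chr17:35244080-35244102, were -2.64, -2.16, -2.20 and -1.81 in sham replicates 5 to 8 and -3.17, -3.41, -3.29 and -3.41 in LPS replicates 6, 10, 11 and 12. All LPS arrays were below all sham arrays, and sham 5 was the lowest of its group and sham 8 the highest. The arm was 2.17-fold lower after LPS (log2 difference -1.12 ± 0.16 SE, from -2.20 ± 0.34 to -3.32 ± 0.12, SD, n = 4 per group, limma adjusted p = 0.00137). MiR-7080-5p, at chr8:123130106-123130128, measured -2.27, -1.59, -1.82 and -1.28 in sham and -2.56, -2.70, -2.85 and -2.94 in LPS kidneys, with no overlap and the same order among sham arrays. It fell by 1.02 ± 0.20 (SE, adjusted p = 0.00485).

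MiR-6987-5p, at chr19:5679050-5679071 on the minus strand, had sham levels of -2.70, -2.43, -2.55 and -2.21 and LPS levels of -3.07, -3.40, -3.20 and -3.18. The sham arrays kept the order of the other arms at a smaller range, and the groups did not overlap. The fall was 0.74 ± 0.11 (SE, adjusted p = 0.00168). MiR-6918-5p, at chr11:4891350-4891372, was the member of set A whose groups overlapped, with -2.44, -1.60, -1.86 and -1.40 in sham and -2.36, -2.80, -2.67 and -3.04 in LPS arrays. Sham 5 lay below LPS 6 in this arm. Its difference was -0.89 ± 0.23 (SE, adjusted p = 0.0187), and the call was lost without sham 6 or without LPS 12.

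The remaining 4 arms of set A, miR-6904-5p (chr1:180587206-180587227), miR-6971-5p, miR-6980-5p and miR-7028-5p (chr5:114719515-114719537), fell by 0.90 to 0.97, with adjusted p from 0.0081 to 0.0153. In each of them sham 5 was the lowest and sham 8 the highest sham array, and LPS 6 was the highest LPS array. MiR-6980-5p shows how close the groups came in sham 5: -3.30 there against -3.31 in LPS 6, with the other sham arrays at -2.35, -2.54 and -2.08 and the other LPS arrays at -3.63, -3.50 and -3.69. The difference of miR-6971-5p, the dimmest of the set, was -0.90 but -0.58 with a floor higher by 1 log2 unit and -1.47 in the authors' table of ratios.

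The size of the fall in set A depended on which arrays were set side by side. The mean level of the set was -2.89, -2.21, -2.41 and -1.93 in sham replicates 5 to 8 and -3.06, -3.35, -3.31 and -3.45 in LPS replicates 6, 10, 11 and 12. The sham range of these means was wider than the LPS range. Within columns 1 to 4 of the slide, the median difference of the set was -0.12 (sham 5 and LPS 6), -1.13 (sham 6 and LPS 10), -0.90 (sham 7 and LPS 11) and -1.59 (sham 8 and LPS 12). With column as a block 4 of the 8 calls were lost, those of miR-6904-5p (adjusted p = 0.0535), miR-6918-5p (0.0733), miR-6980-5p (0.0575) and miR-7028-5p (0.0537). Leaving out sham 5 gave a set median of -1.10 and leaving out sham 8 one of -0.75. Background correction with normexp gave -0.37 with all 8 arms called. That correction adds an offset of 50 to each signal, about the size of the signals of this set (brightest probes at 24.1 to 54.2), which by itself makes log2 differences of dim arms smaller.

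Median background per array, in the same array order, was 44.9, 44.3, 43.9 and 41.3 in sham and 45.7, 44.2, 44.6 and 41.9 in LPS kidneys. The sham array with the lowest background, sham 8, had the highest set A level, and LPS 12, with the lowest background of its group, had the lowest set A level. The part of background in these values was not tested. All 8 arms had the same sign of difference in their 2 brightest probes, whose deviations correlated at 0.70 to 0.99 over the 8 arrays. Of the 34 tested arms, 30 could be compared in this way, 26 with the same sign and 24 with a correlation over 0.5. For called arms outside set A it was -0.11 (miR-6965-5p), 0.44 (miR-7033-5p), 0.49 (miR-7015-5p), 0.64 (miR-7082-5p), 0.73 (miR-7045-5p) and 0.93 (miR-6995-5p). MiR-7020-5p could not be compared.

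**Figure D3:**
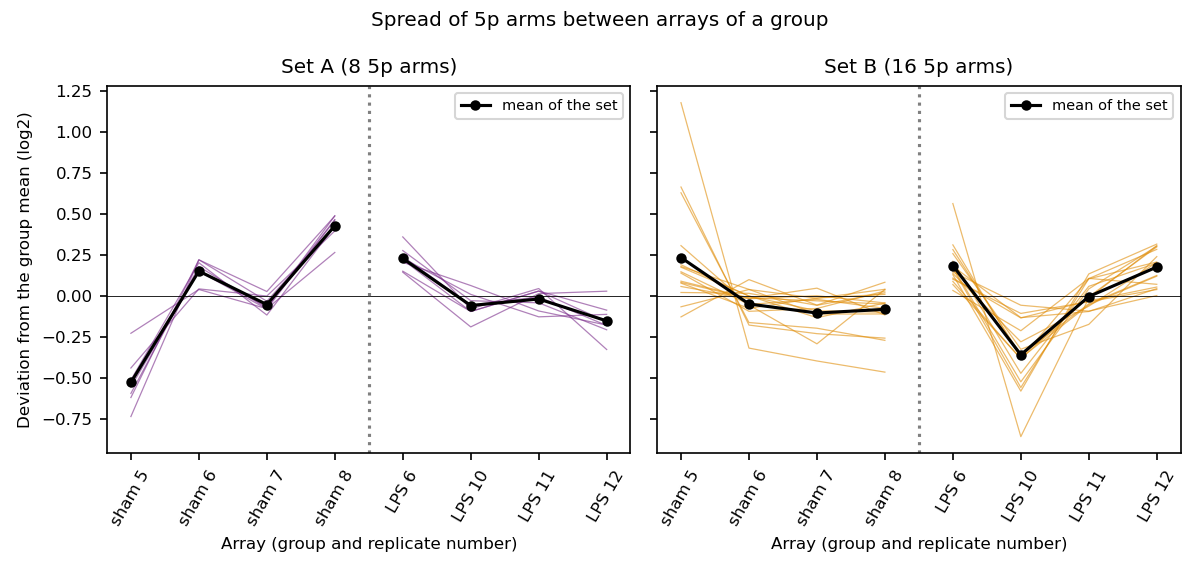
Deviation of each arm from its group mean (y axis, log2) on each array (x axis, group and replicate number) for set A (left, 8 arms) and set B (right, 16 arms), with thin lines for arms and black points for the mean of the set. Set A is lowest on sham 5 (mean -0.53) and highest on sham 8 (0.43), and set B is highest on sham 5 (0.23) and lowest on LPS 10 (-0.36).

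Set B held 16 arms, among them the brightest: miR-6908-5p, miR-6937-5p, miR-6944-5p, miR-6969-5p, miR-6997-5p, miR-7002-5p, miR-7015-5p, miR-7020-5p, miR-7033-5p, miR-7042-5p, miR-7044-5p, miR-7047-5p, miR-7048-5p, miR-7058-5p, miR-7070-5p and miR-7082-5p. Of these 2 fell, 2 rose and 12 did not pass the test, with a median difference of -0.29. That median rested on single arrays, at -0.16 without sham 5 and -0.12 without LPS 10. The mean deviations of the set were 0.23, -0.05, -0.10 and -0.08 in sham replicates 5 to 8 and 0.19, -0.36, -0.00 and 0.18 in LPS replicates 6, 10, 11 and 12.

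The falls in set B were those of miR-7015-5p and miR-7020-5p. MiR-7015-5p (chr4:120973295-120973317, minus strand, in Smap2) measured -2.85, -2.62, -2.77 and -2.63 in sham and -3.38, -4.08, -3.51 and -3.25 in LPS arrays. LPS 10 was far down, but every LPS array lay below every sham array. Its fall was 0.84 ± 0.17 (SE, adjusted p = 0.00571), and its call held in 25 of 26 other settings, all except the one without a filter, at -0.28 with normexp. MiR-7020-5p (chr4:139644047-139644070, plus strand, in Aldh4a1, a mitochondrial enzyme of proline breakdown) measured -2.19, -2.39, -2.36 and -2.41 in sham and -2.89, -3.13, -3.03 and -2.94 in LPS kidneys. Groups were narrow and did not overlap. The difference of -0.66 ± 0.07 (SE, adjusted p = 0.000379) lay between -0.53 and -0.75 within each of the 4 slide columns and was called in all 26 other settings. It was -0.27 with normexp and -0.35 when log2 values were averaged over probes, since the second-brightest probe of this arm was at its floor on all arrays.

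Other arms of set B were spread widely between arrays. MiR-7002-5p had the widest sham spread of the 34 arms, with -1.96 in sham 5 against -3.46, -3.54 and -3.60, and -3.12, -4.54, -3.69 and -3.37 in LPS arrays, so its difference of -0.54 ± 0.43 (SE) did not pass (adjusted p = 0.338). The rises were small. MiR-7033-5p (chr5:135383783-135383805, minus strand, in Pom121, a nuclear pore gene) went from -3.05, -3.20, -3.14 and -3.12 in sham to -2.81, -3.02, -2.94 and -2.87 after LPS without overlap, a rise of 0.22 ± 0.06 (SE, adjusted p = 0.0284). MiR-7082-5p (chr9:21075563-21075583, minus strand, in Raver1, an RNA-binding protein gene) went from -1.53, -1.63, -1.65 and -1.67 to -1.26, -1.46, -1.50 and -1.41, a rise of 0.21 ± 0.07 (SE, adjusted p = 0.0344). Both rises sat near the threshold: the calls were lost in 10 and 8 of 26 other settings, with adjusted p up to 0.491 and 0.52, and the differences were 0.07 for each with spike-in scaling and 0.04 and 0.10 with normexp. With quantile scaling miR-7033-5p differed by 0.35.

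Among the 10 arms in neither set, 2 fell and 1 rose. MiR-6965-5p (chr17:24240919-24240942, minus strand, in Ccnf, the cyclin F gene) was the steadiest of the called arms, with -2.03, -2.07, -2.08 and -2.06 in sham and -2.34, -2.35, -2.39 and -2.32 in LPS kidneys. Its difference was small next to those of set A but many times its spread, at -0.29 ± 0.04 (SE, from -2.06 ± 0.02 to -2.35 ± 0.03, SD, n = 4 per group, adjusted p = 0.00168). It was between -0.26 and -0.31 within each slide column and was called in all 26 other settings, with -0.16 under normexp. MiR-6995-5p (chr19:47273562-47273584, minus strand, in Sh3pxd2a) measured -1.90, -2.12, -2.13 and -2.16 in sham and -2.33, -2.42, -2.61 and -2.34 in LPS arrays, without overlap, and fell by 0.34 ± 0.09 (SE, adjusted p = 0.0163), or by 0.18 under normexp. MiR-7045-5p (chr6:125097029-125097049, plus strand, in Chd4, a chromatin remodeller gene) rose from -2.46, -2.49, -2.33 and -2.27 to -1.90, -1.97, -2.18 and -2.10, again without overlap. The rise was 0.35 ± 0.08 (SE, adjusted p = 0.0121), was not called with column as a block (adjusted p = 0.0535), and was 0.21 and not called with spike-in scaling and 0.13 with normexp.

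The other 7 arms in neither set, miR-6898-5p, miR-6984-5p, miR-7005-5p, miR-7011-5p, miR-7018-5p, miR-7050-5p and miR-7088-5p, did not pass the test, with differences from -0.22 to 0.25. Arms with a shared seed can be set side by side. MiR-7005-5p, which has the seed of miR-6975-5p, measured -1.86, -2.18, -1.85 and -2.01 in sham and -2.11, -1.99, -2.32 and -2.18 in LPS arrays, overlapping throughout, with a difference of -0.17 ± 0.10 (SE, adjusted p = 0.19) beside -1.12. For miR-7047-5p and miR-6965-5p the differences were -0.40 and -0.29.

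Probes on this array are DNA, complementary to the 3' part of the mature miRNA. After the values had been seen, the letters ACCC in the probe, which pair with GGGU in the miRNA, were noticed in set A. They were searched on the probe strand only, in the longest probe of each miRNA, with a probe holding them more than once counted once. The longest probes of set A are shown first and those of miR-7015-5p, miR-7020-5p, miR-7047-5p and miR-6937-5p after them, with ACCC in capitals, to let the shared letters be seen.
miR-6904-5p probe: ccactcaactctaACCC
miR-6918-5p probe: agaacctaatcccgtcc
miR-6971-5p probe: agcctctacACCCtcc
miR-6975-5p probe: tgccaaACCCctttc
miR-6980-5p probe: ctaacctagcctcccc
miR-6987-5p probe: ctcACCCtgtcACCC
miR-7028-5p probe: ctcctgACCCaagc
miR-7080-5p probe: ccaaACCCacctcc
miR-7015-5p probe: gaACCCacagcctac
miR-7020-5p probe: ctggtcACCCtctcc
miR-7047-5p probe: tcagACCCagccct
miR-6937-5p probe: acacagACCCagccc

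ACCC was present in 6 of the 8 probes of set A, in 5 of the 26 other tested arms and in 28 of the 304 other tested miRNAs. On the whole array it was present in 31 of the 194 arms (16.0%) and 122 of 1881 miRNAs (6.49%). Of the 11 tested arms with ACCC, 8 fell and none rose (median difference -0.84), and of the 23 without it 4 fell and 3 rose (median -0.15). Since the letters were noticed in set A, 6 of the 8 falls are those that led to the search. Among the 26 tested arms outside set A, 2 of 5 with ACCC fell (median -0.40) and 2 of 21 without it (median -0.12). Outside the arms, of 28 other miRNAs with ACCC, 19 were lower and 1 higher (median -0.41), and of 276 without it, 55 were lower and 46 higher (median -0.05). Over all tested miRNAs, 27 of 39 with ACCC (69.2%) and 59 of 299 without it (19.7%) were lower after LPS, beside 25.4% of all 338. The 27 include the 6 arms of set A that led to the search. They also include 10 other miRNAs that followed set A over the arrays, described next. These are counts over miRNAs that share arrays and letters, with no test, and a match says nothing of what bound the probe.

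The profile of set A over arrays was also found outside the arms. The deviations of 13 other tested miRNAs correlated with the mean of set A at more than 0.9 over the 8 arrays, and 12 of these were lower after LPS. They were found after the values were seen and are named by how close they came. None of them belongs to the number range, and 10 of the 13 had ACCC in the longest probe. The closest was miR-3070-2-3p (correlation 0.99, difference -0.97), followed by miR-7234-3p (0.99, -0.93). The exception was miR-203-3p, whose difference of -0.15 did not pass (adjusted p = 0.166).
miR-3070-2-3p probe: tctACCCctgaccatag
miR-7234-3p probe: ccttctACCCtagaaaga

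Longer shared runs were looked for in the longest probes of all 561 pairs of tested arms. The longest, 12 bases (cagacccagccc), joined miR-6937-5p and miR-7047-5p, whose deviations correlated at 0.998 and whose differences were both -0.40. A run of 10 joined miR-7082-5p and miR-7088-5p, with a correlation of 0.78, and 6 pairs shared 8 bases, with a median correlation of 0.52 and a range from 0.02 to 0.94. The 8-base pair with 0.94 was miR-6975-5p and miR-7080-5p. The 8 pairs with only 2 shared bases had a median of 0.49, pairs with 3 to 7 had medians from 0.15 to 0.28, and single pairs with 3 or 4 shared bases reached 0.994 and 0.996, so high correlations also occurred with short runs.

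**Figure D4:**
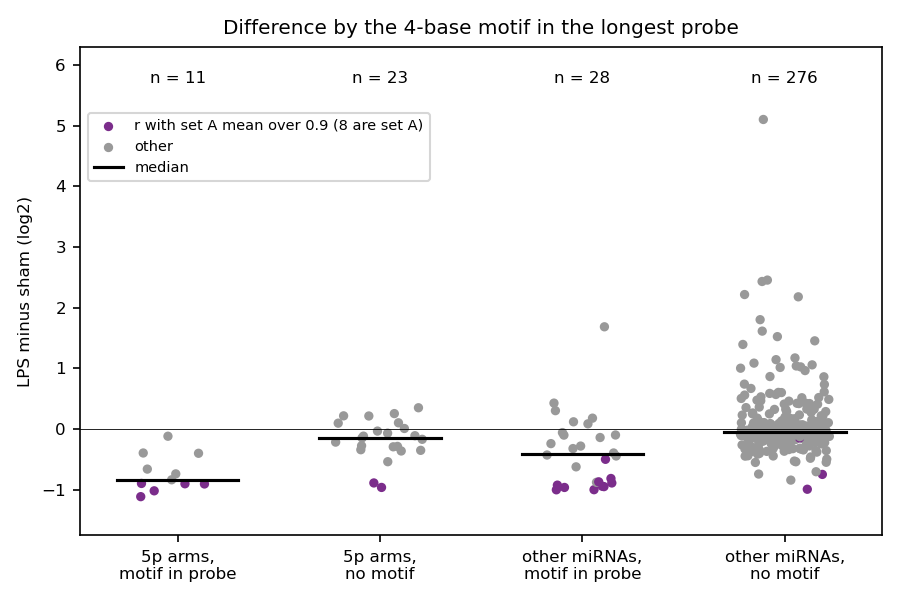
LPS minus sham difference (y axis, log2) of the 338 tested miRNAs by whether the longest probe holds the 4-base motif named in the text, separately for the 5p arms (11 with, 23 without) and the other miRNAs (28 with, 276 without), with black bars at the medians and purple for miRNAs whose deviations correlate above 0.9 with the mean of set A. Arms of set A were compared with the mean of the rest of the set. Of them 7 are purple and miR-6987-5p (0.85) is grey, although the legend counts 8. Most purple points lie near -0.9 in the columns with the motif, and the medians from left to right are -0.84, -0.15, -0.41 and -0.05.

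Of the tested miRNAs outside the arms, 6 were most like the mean profile of the 34 arms by correlation of deviations over the 8 arrays: miR-2137 (0.91), miR-6769b-5p (0.90), miR-3154 (0.89), miR-7036a-5p (0.89), miR-188-5p (0.87) and miR-7118-5p (0.86). None of these passed the LPS against sham test, with differences from -0.08 to 0.57. MiR-7036a-5p has a number inside the range, but the rule took no name with a letter after the number. The same holds for miR-6973b-5p, which was also tested. The arms least like the mean of the others were miR-7005-5p (-0.26), miR-6898-5p (-0.16) and miR-6984-5p (-0.12), all in neither set.

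The 2 arms left out by the rule stood at the other end. MiR-6931-5p measured -1.14, -1.24, -0.96 and -1.19 in sham and 1.43, 0.20, 0.20 and 0.86 in LPS kidneys, a difference of 1.80 ± 0.26 (SE, adjusted p = 0.00142). MiR-7040-5p stayed below the background limit on the 4 sham arrays and was detected on all 4 LPS arrays. For its brightest probe the LPS signal was at least 1.70-fold higher, a bound against the higher of the lowest signal above background on each sham array and the probe's own. MiR-7040-5p entered the test only through the LPS arrays, where it was high. Its sham values other than that of sham 5 were set to the floor. The limma adjusted p of 0.0013 is therefore no support for the rise. With both entries added back, 12 of 36 tested arms fell (33.3%) and 5 were called higher (13.9%). The 5 include miR-7040-5p, whose call is no support, so the share is not read as a result. Over all 338 tested miRNAs 14.8% were higher.

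Of the 3p arms in the same number range, miR-7022-3p was the only one tested. It was lower after LPS by 0.16 ± 0.05 (SE, adjusted p = 0.0374), a call lost in 16 of 26 other settings, and miR-7022-5p was not among the tested arms. Among arms of the mirtrons named earlier, miR-877, miR-1224 and miR-702, 4 of 6 were detected on some array and 2 were tested. MiR-1224-5p had a level of 1.94 ± 0.02 in sham and 1.84 ± 0.39 in LPS (SD, n = 4 per group), and did not pass (difference -0.09 ± 0.17 SE, adjusted p = 0.697). MiR-702-3p had a difference of -0.19 ± 0.07 (SE, adjusted p = 0.051), and its arrays did not overlap.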

How the data were processed

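Each of 8 arrays gave 1 Agilent text file, in which the authors deposited the scanner's spot intensities, which per the file headers had undergone background subtraction and spatial detrending but no scaling across arrays. Agilent Feature Extraction 12.0.3.1 is named in the submitters' processing notes. Another deposited table holds a linear ratio per miRNA and array, with column medians from 0.958 to 1.06 and array factors of unknown origin, and it served only as an alternative.

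Outlier spots were dropped and the remaining spots of a probe (of 7 to 30) averaged, and each array scaled to the 75th percentile of those 551 probes that were above background throughout. Probe values of a miRNA were added up, floored at -4.68 (log2) and log2-transformed. No value of the tested arms was at the floor. The comparison of LPS with sham used R 4.3.3 and limma 3.58.1 (functions lmFit and eBayes, 2-sided test, group as the only term). P-values of the 338 miRNAs detected throughout a group were adjusted by Benjamini-Hochberg, with a threshold of 0.05. The number of arrays limits the precision.

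Named were the called arms with non-overlapping groups (up to 12 per direction), the 4 brightest arms, arms sharing a seed, the ends of the range, the 2 entries left out, the profiles most and least alike, the other arms of set A, and the comparison lists. The arms, lists and rules were chosen with earlier results of these data known. Sets A and B, the ACCC motif and shared probe runs were chosen after the values were seen. Alternatives covered scaling, background, probe summary, spot flags, filter, floor, variance model, slide column, the ratio table, the entries left out and each array in turn.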

Additional observations from a re-analysis of the deposited data

Results flagged for a closer look

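Over 90 groups of 4 arrays (34 tested arms and 11 other named miRNAs, sham and LPS apart), 7 had 1 array far from the other 3 for their range, where chance alone gives about 1 in 20, or 4.5. In 5 of the 7 this array was sham replicate 5, and it was the highest of its group. It read -0.21 for miR-6937-5p (others -1.13 to -1.05), -1.90 for miR-6995-5p (others -2.16 to -2.12), -1.96 for miR-7002-5p (others -3.60 to -3.46), 1.19 for miR-7047-5p (others 0.29 to 0.39) and -4.57 for miR-7040-5p (others at the floor of -4.68). For miR-7040-5p any value above the floor would stand apart in this way, and without it 6 groups remain, 4 of them with sham replicate 5. In the other 2 it was sham replicate 7, at -1.79 for miR-6908-5p (others -1.72 to -1.72) and -2.00 for miR-7050-5p (others -2.10 to -2.08). The 90 groups share the same arrays and are not independent. Deviations of miR-6937-5p, miR-7002-5p and miR-7047-5p correlated at 0.99 to 0.998, so their flags are not separate events. The count of 7 can therefore not be weighed against 4.5.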

How the results depend on the processing

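No paired analysis was possible because the groups share only the replicate number 6, as far as pairing by number goes. With 194 arms tested under no filter, 4 fell and 1 rose and 60 miRNAs were called in all. The median difference was 0, since most of these arms lie at the floor. The median correlation of deviations was 0.0947, taken only over arms whose values varied between arrays of a group. Rises numbered 0 with spike-ins (median difference -0.43, correlation 0.38), 1 with normexp (-0.15, 0.37) and 5 with the entries left out added back. The 5 include miR-7040-5p, which entered the test only through the LPS arrays. The correlation was 0.0787 with quantile scaling and 0.0990 in the authors' table of ratios. Slide column, which joins 1 sham and 1 LPS array, gave 80 called miRNAs as a block, with 8 falls and 2 rises among the arms. Leaving out 1 array gave 11 to 15 falls, 1 to 4 rises, 88 to 151 called miRNAs and a correlation of 0.0768 to 0.285. Falls numbered 12 to 18 in all settings with every array kept other than those without a filter and with column as a block. MiR-6965-5p, miR-6975-5p, miR-6987-5p and miR-7020-5p were called in all 26 other settings. Signals near the background limit all values of dim arms.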
